A study of Homo sapiens with 4 samples.

Results

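Proteasome subunit transcripts were examined in HCT116, an established human colorectal carcinoma cell line. The 9 genes were the inducible catalytic subunits of the immunoproteasome (PSMB8, PSMB9 and PSMB10), their constitutive partners (PSMB5, PSMB6 and PSMB7) and the subunits of the PA28 activator (PSME1, PSME2 and PSME3). They were chosen by name among the 17958 genes that a probe set of the array named alone, and all 9 were measured. For the 5aza group, 1 µM of 5-aza-2'-deoxycytidine (decitabine, a nucleoside that traps DNA methyltransferases) was given 24 hours after seeding and again 48 hours later, and RNA was taken 72 hours after the first dose (2 arrays). The vehicle group (2 arrays) was the same line without the drug, the vehicle itself not being named. The labels do not say whether the 2 samples of a group were separate cultures, so the spread behind the p-values is that between these samples and may be technical. Values are log2 RMA levels, that is, background-corrected, quantile-normalized probe set summaries.

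The proteasome degrades ubiquitin-tagged proteins with proteolytic sites inside its barrel-shaped core. In cells exposed to interferon-gamma, and in leukocytes without it, PSMB8, PSMB9 and PSMB10 replace PSMB5, PSMB6 and PSMB7 in newly built cores, which changes the peptides made for display on MHC class I. PA28 is a ring that opens the core without ubiquitin: PSME1 and PSME2 form the interferon-inducible cytoplasmic ring, and PSME3 forms a nuclear one.

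Regulatory sequence beside the start sites is shown first, because PSMB8 and PSMB9 lie in the MHC on chromosome 6 next to the peptide transporter genes TAP1 and TAP2, and PSMB9 and TAP1 start head to head. Promoter windows (300 bases, 250 before to 50 after an annotated start, RefSeq, GRCh38.p14) were held for 7 of the 9 genes. They were searched on both strands for GAAANNGAAA, the core of the element bound by interferon regulatory factors, and for TTCNNNGAA, the element bound by STAT dimers. The windows below are those of PSMB9 (chr6:32853942-32854241, plus strand), the upstream of the start sites listed for TAP1 (chr6:32853655-32853954, minus strand), the downstream of the start sites listed for PSMB8 (chr6:32843998-32844297, minus strand), PSMB10 (chr16:67936801-67937100, minus strand) and PSME1 (chr14:24135944-24136243, plus strand). They were picked because these inducible genes moved apart from one another, and capitals mark each GAAANNGAAA match on either strand.
PSMB9: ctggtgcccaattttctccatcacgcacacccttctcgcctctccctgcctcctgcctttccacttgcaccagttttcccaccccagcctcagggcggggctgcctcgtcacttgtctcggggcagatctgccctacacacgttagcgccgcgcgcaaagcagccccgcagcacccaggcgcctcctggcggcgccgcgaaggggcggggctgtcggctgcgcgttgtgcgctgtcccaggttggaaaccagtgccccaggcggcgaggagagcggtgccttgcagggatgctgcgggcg
TAP1: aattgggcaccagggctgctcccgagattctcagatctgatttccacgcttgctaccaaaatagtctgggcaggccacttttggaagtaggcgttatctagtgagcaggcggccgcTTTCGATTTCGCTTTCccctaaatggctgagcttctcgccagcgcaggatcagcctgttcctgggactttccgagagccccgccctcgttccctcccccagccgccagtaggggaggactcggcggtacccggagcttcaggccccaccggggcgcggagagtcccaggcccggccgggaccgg
PSMB8: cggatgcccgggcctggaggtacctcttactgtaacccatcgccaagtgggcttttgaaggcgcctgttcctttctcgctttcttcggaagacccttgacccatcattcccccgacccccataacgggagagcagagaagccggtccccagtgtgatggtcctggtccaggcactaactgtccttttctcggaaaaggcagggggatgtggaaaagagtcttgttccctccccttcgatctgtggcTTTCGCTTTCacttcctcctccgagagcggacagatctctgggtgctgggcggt
PSMB10: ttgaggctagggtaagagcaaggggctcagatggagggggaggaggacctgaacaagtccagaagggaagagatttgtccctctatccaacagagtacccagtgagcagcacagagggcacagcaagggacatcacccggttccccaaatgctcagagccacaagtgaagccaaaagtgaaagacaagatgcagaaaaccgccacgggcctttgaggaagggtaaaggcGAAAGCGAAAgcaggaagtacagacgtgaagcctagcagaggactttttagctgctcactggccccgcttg
PSME1: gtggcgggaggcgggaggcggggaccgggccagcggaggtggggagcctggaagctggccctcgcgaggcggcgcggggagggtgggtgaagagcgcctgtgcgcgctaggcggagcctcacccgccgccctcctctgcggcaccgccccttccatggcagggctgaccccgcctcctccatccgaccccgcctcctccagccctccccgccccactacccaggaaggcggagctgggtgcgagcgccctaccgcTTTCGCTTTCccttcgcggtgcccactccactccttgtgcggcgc

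GAAANNGAAA was found for 4 of the 7 genes, PSMB8, PSMB10, PSME1 and PSME2, each time as GAAAGCGAAA, and in 3.57% of all 35116 promoter windows of this length. The 7 genes had 9 windows, so for both motifs the count per gene and the share per window are unlike measures. The matches lay at -4 to 6 from the downstream PSMB8 start, -21 to -12 from the PSMB10 start, 6 to 15 from the PSME1 start and -28 to -19 from the PSME2 start, with no position 0. The PSMB9 window held neither motif. The upstream window of TAP1, which shares 13 bases with that of PSMB9, held GAAANNGAAA in 2 overlapping matches between -134 and -119. Both lay between the upstream TAP1 start and the PSMB9 start, thus upstream of PSMB9 too, but beyond the reach of its window. The absence for PSMB9 therefore holds for its window only, not for all sequence upstream of its start. The other TAP1 window held TTCNNNGAA and no GAAANNGAAA. TTCNNNGAA, which reads the same on both strands and overlapped none of these matches, occurred for PSMB8, PSMB5 and PSME3 and in 7.66% of all windows. A match is a stretch of letters, not a measured binding site. CpG dinucleotides are the bases on which cytosine methylation is carried. They numbered 26 in the PSMB9 window, 11 and 22 in those of TAP1, and 15 and 17 in those of PSMB8. The counts were 7 for PSMB10, 13 and 10 for PSMB5, 31 for PSME1, 17 for PSME2 and 29 for PSME3. The median over all windows was 14. Methylation itself was not measured.

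PSMB9 fell and was the member that moved furthest, while PSMB8 rose slightly at a low level and PSMB10 stayed without a call. PSME1 fell slightly, and no constitutive subunit was called. In limma's test (Benjamini-Hochberg adjusted p under 0.05 over all 17958 genes) 1 member rose and 2 fell, so 33.3% of the members were called, against 28.0% of all genes (12.4% rose and 15.6% fell). For 6 of the 9 members, 66.7%, the 5aza and vehicle arrays were separate in level, against 65.8% of all genes. These were 2 members higher on both 5aza arrays (26.3% of all genes) and 4 lower on both (39.5%). As a group the members were thus called about as often as other genes, and the median log2 fold change was 0.01 for the members and -0.07 for all genes.

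**Figure D1:**
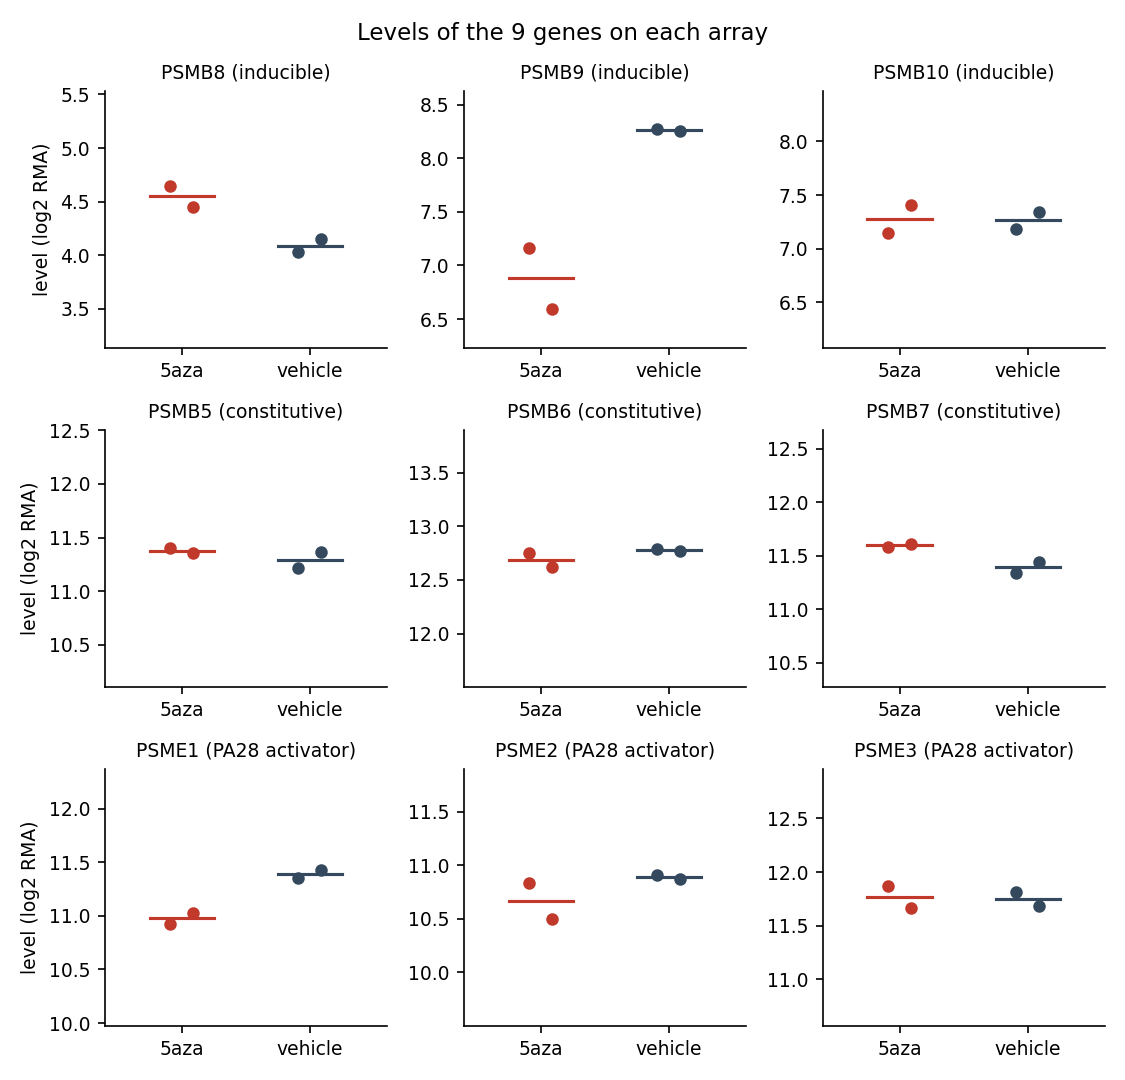
Levels (log2 RMA) of the 9 genes on each array, 1 point per array and a line at the mean of the 2 arrays, with 5aza left of vehicle. All panels span the same log2 range, each placed around its own gene. PSMB9 lies at 7.17 and 6.59 on the 5aza arrays and at 8.28 and 8.26 on the vehicle arrays, the widest gap of the 9 panels.

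PSMB9 encodes the inducible subunit that takes the place of PSMB6. Its level was 7.17 and 6.59 on the 5aza arrays, against 8.28 and 8.26 on the vehicle arrays. Both 5aza arrays lay below both vehicle arrays, and the 5aza arrays differed from each other far more than the vehicle arrays did (SD 0.41 in 5aza and 0.01 in vehicle, n = 2 each). PSMB9 was 2.62-fold lower in 5aza cells (log2 fold change -1.39, SE 0.19, limma adjusted p = 0.00265). Without 5aza replicate 1 the log2 fold change was -1.68, and without 5aza replicate 2 it was -1.10, called in both cases. The 3 probe sets naming PSMB9 held identical values and count as 1 measurement, as do the 3 naming PSMB8.

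PSMB8 encodes the inducible counterpart of PSMB5, which carries the chymotrypsin-like site. Its level was 4.64 and 4.45 on the 5aza arrays, against 4.03 and 4.15 on the vehicle arrays. The groups did not overlap, and all 4 values lay below the array medians, where folds on this scale are usually compressed. Those medians were 5.84 and 5.84 on the 5aza arrays, against 5.73 and 5.72 on the vehicle arrays. They were thus offset in the direction in which PSMB8 moved, and the part of this offset in its change was not tested. PSMB8 rose 1.37-fold (log2 fold change 0.46, SE 0.13, limma adjusted p = 0.0365). Its log2 fold change was 0.37 when quantile normalization was repeated. The call was lost without 5aza replicate 1 (limma adjusted p = 0.0754), vehicle replicate 1 (0.258) or vehicle replicate 2 (0.138), and when quantile normalization was repeated (0.0688). The antisense RNA gene PSMB8-AS1, next to PSMB8 in RefSeq, had no probe set used here.

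PSMB10, on chromosome 16, encodes the inducible counterpart of PSMB7 and its trypsin-like site. Its level was 7.14 and 7.41 on the 5aza arrays, against 7.18 and 7.34 on the vehicle arrays. The vehicle arrays lay between the 5aza arrays. The log2 fold change was 0.01 with a 95% interval of -0.32 to 0.34 (limma adjusted p = 0.963).

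The constitutive subunits were not called. PSMB5 was at 11.40 and 11.35 on the 5aza arrays, against 11.21 and 11.37 on the vehicle arrays, with overlapping groups and a log2 fold change of 0.08 (95% interval -0.20 to 0.37, limma adjusted p = 0.653). PSMB6, with the caspase-like site, was at 12.75 and 12.62 on the 5aza arrays, against 12.78 and 12.77 on the vehicle arrays (log2 fold change -0.09, 95% interval -0.37 to 0.19, limma adjusted p = 0.634). PSMB7 was at 11.58 and 11.61 on the 5aza arrays, against 11.34 and 11.44 on the vehicle arrays (log2 fold change 0.21, 95% interval -0.07 to 0.48, limma adjusted p = 0.231). For PSMB6 both 5aza values were the lower ones and for PSMB7 the higher ones. Each of the 3 intervals leaves out a change of the size seen for PSMB9, but that of PSMB7 includes the 0.46 seen for PSMB8.

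Each inducible subunit was then set against its partner within the same array, so that an offset shared by all probe sets of an array cancels. An array factor that varies with level does not cancel, and the partners lie at different levels. What is compared is how far the difference between the probe sets moved, not the level of one gene against the other. PSMB9 minus PSMB6 was -5.59 and -6.03 on the 5aza arrays, against -4.51 and -4.51 on the vehicle arrays, a change of -1.30. PSMB8 minus PSMB5 was -6.76 and -6.90 on the 5aza arrays, against -7.18 and -7.22 on the vehicle arrays, a change of 0.37, and of 0.22 with quantile normalization repeated. PSMB10 minus PSMB7 was -4.44 and -4.21 on the 5aza arrays, against -4.16 and -4.10 on the vehicle arrays, a change of -0.20. In this last pair PSMB10 itself moved by 0.01 and PSMB7 by 0.21, but neither was called, so the change cannot be assigned to either gene. PSMB10 moved by 0.14 without 5aza replicate 1 and by -0.12 without 5aza replicate 2, and PSMB7 by 0.22 and 0.19. The first and last differences were lower, and the middle one higher, on both 5aza arrays. Of the 3 pairs, the one with PSMB9 moved furthest and in the direction opposite to that with PSMB8. Without 5aza replicate 1 the change of PSMB10 minus PSMB7 shrank to -0.08, and without 5aza replicate 2 it was -0.31. An exact permutation test over the 4 arrays gave p = 0.333 for each pair (two-sided), the smallest p that 2 arrays against 2 allow, also after adjustment over 6 such comparisons.

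**Figure D2:**
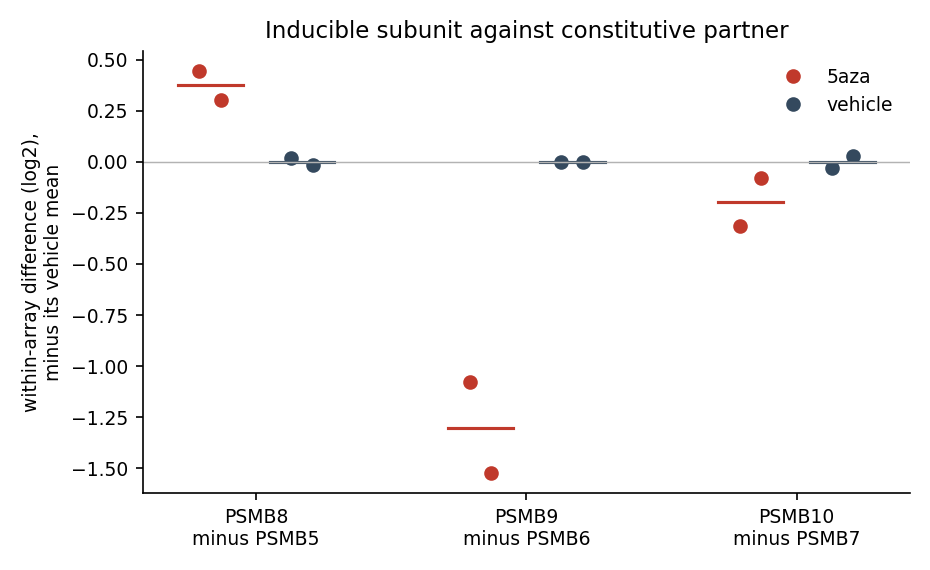
Difference between an inducible subunit and its constitutive partner on each array (log2), shifted so that the mean of the 2 vehicle arrays is 0, with 5aza left of vehicle. Points are arrays and lines are means of 2 arrays. The 5aza means lie at 0.37 for PSMB8 minus PSMB5, -1.30 for PSMB9 minus PSMB6 and -0.20 for PSMB10 minus PSMB7.

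The other 3 of those 6 comparisons were chosen after their values were seen. PSMB9 minus PSMB8, both inducible subunits encoded in the MHC, was 2.52 and 2.14 on the 5aza arrays, against 4.24 and 4.11 on the vehicle arrays, a change of -1.85 (exact permutation p = 0.333). PSMB9 minus TAP1 changed by -1.50, ranging from -1.88 without 5aza replicate 1 to -1.12 without 5aza replicate 2 (exact permutation p = 0.333). PSME1 minus PSME3 changed by -0.43 (exact permutation p = 0.333), and by -0.27 without 5aza replicate 1.

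Among the measured neighbours on chromosome 6, the genes next to PSMB9 did not move as it did. TAP1, a subunit of the peptide transporter of the endoplasmic reticulum, was at 9.68 and 9.86 on the 5aza arrays, against 9.65 and 9.66 on the vehicle arrays (log2 fold change 0.11, 95% interval -0.18 to 0.40, limma adjusted p = 0.554). The pseudogene PPP1R2P1 on the other side of PSMB9 had a log2 fold change of 0.24 (limma adjusted p = 0.199). It was at 4.78 and 4.97 on the 5aza arrays, against 4.59 and 4.67 on the vehicle arrays. These values lay below the array medians, so its change is less certain than that of TAP1. TAP2, the other transporter subunit and the neighbour of PSMB8, was at 8.159 and 8.005 on the 5aza arrays, against 8.46 and 8.51 on the vehicle arrays, and fell by 0.40 on the log2 scale (limma adjusted p = 0.0463). The fall of TAP2 was not called without 5aza replicate 2 (0.0977), vehicle replicate 1 (0.215) or vehicle replicate 2 (0.278), nor with housekeeping centring (0.102), quantile normalization repeated (0.0917) or the mean of its probe sets (0.0554).

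**Figure D3:**
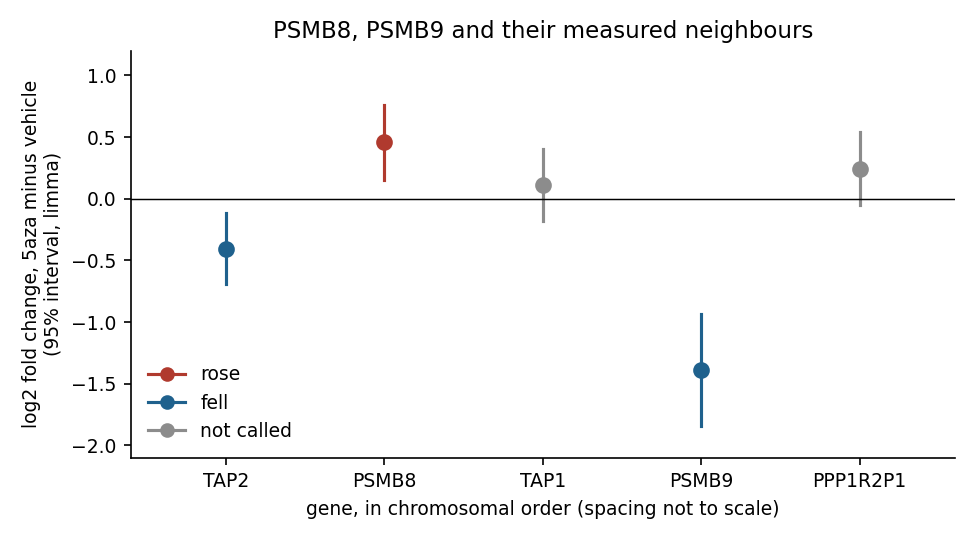
Log2 fold change (5aza minus vehicle) with limma's 95% interval for PSMB8, PSMB9 and their neighbours with a probe set, in chromosomal order with spacing not to scale. PSMB9 at -1.39 lies below its neighbours TAP1 at 0.11 and PPP1R2P1 at 0.24, and PSMB8 at 0.46 lies above TAP2 at -0.40.

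Of the 3 PA28 subunits, PSME1 alone was called, as a fall. PSME1 was at 10.93 and 11.03 on the 5aza arrays, against 11.35 and 11.43 on the vehicle arrays. The groups did not overlap, and PSME1 was 1.33-fold lower in 5aza cells (log2 fold change -0.41, SE 0.12, limma adjusted p = 0.0387). That call was lost without 5aza replicate 1 (limma adjusted p = 0.0677), vehicle replicate 1 (0.188) or vehicle replicate 2 (0.270), with housekeeping centring (0.110) and with quantile normalization repeated (0.0673). PSME2, its partner in the ring, was at 10.83 and 10.50 on the 5aza arrays, against 10.91 and 10.88 on the vehicle arrays. Both 5aza values were lower, but PSME2 was not called (log2 fold change -0.22, 95% interval -0.57 to 0.12, limma adjusted p = 0.298). Its log2 fold change was -0.39 without 5aza replicate 1 (limma adjusted p = 0.0521) and -0.06 without 5aza replicate 2 (0.756). PSME3 was at 11.87 and 11.66 on the 5aza arrays, against 11.82 and 11.68 on the vehicle arrays, with overlapping groups (log2 fold change 0.02, 95% interval -0.29 to 0.33, limma adjusted p = 0.942).

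Across the wider machinery, few other genes were called. Of 53 measured proteasome genes, the 9 members included, 3 rose and 3 fell, 11.3% against 28.0% of all genes, with a median log2 fold change of 0.00 against -0.07. None of 11 other constitutive core subunits and none of 16 measured subunits of the 19S cap, which recognizes and unfolds tagged proteins, was called by limma. At an unadjusted p under 0.05 no core subunit was higher or lower (0 and 0), and 1 cap subunit was higher and 1 lower. The smallest p belonged to PSMA1 in the core (log2 fold change -0.25, limma adjusted p = 0.250) and to the ATPase PSMC1 in the cap (log2 fold change -0.40, limma adjusted p = 0.0718). PSMC1 was called without 5aza replicate 1 (-0.53, limma adjusted p = 0.0225), with the replicate block (0.0272) and with an intensity trend (0.0379). The total of falls among the 53 genes was 6 without 5aza replicate 1, 1 without vehicle replicate 1 and 1 without vehicle replicate 2, where rises also numbered 1.

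The other 3 calls among proteasome genes were of PSMA8, PSME4 and PAAF1. PSMA8, a core subunit of the testis that takes the place of PSMA7 in germ cells, was at 5.50 and 4.73 on the 5aza arrays, against 3.07 and 3.03 on the vehicle arrays. It rose 4.18-fold (log2 fold change 2.06, SE 0.24, limma adjusted p = 0.00126), the furthest of all 53 genes, and the value ran from 1.68 without 5aza replicate 1 to 2.45 without 5aza replicate 2. PSMB11, the catalytic subunit of the thymus, was at 3.81 and 4.49 on the 5aza arrays, against 3.69 and 3.04 on the vehicle arrays, and was not called (limma adjusted p = 0.0799; chosen after its value was seen). PSME4, the PA200 activator of the nucleus and of sperm cells, was at 10.98 and 10.80 on the 5aza arrays, against 10.24 and 10.14 on the vehicle arrays. The groups lay apart and PSME4 rose 1.63-fold (limma adjusted p = 0.00720, and 0.0639 without vehicle replicate 2). PAAF1, which binds the ATPases of the cap during assembly, was at 7.39 and 6.56 on the 5aza arrays, against 7.89 and 7.97 on the vehicle arrays. It fell by 0.96 on the log2 scale (limma adjusted p = 0.0308), by 1.38 without 5aza replicate 1 and by 0.54 without 5aza replicate 2, and was not called without vehicle replicate 1 (0.0608) or vehicle replicate 2 (0.0777).

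**Figure D4:**
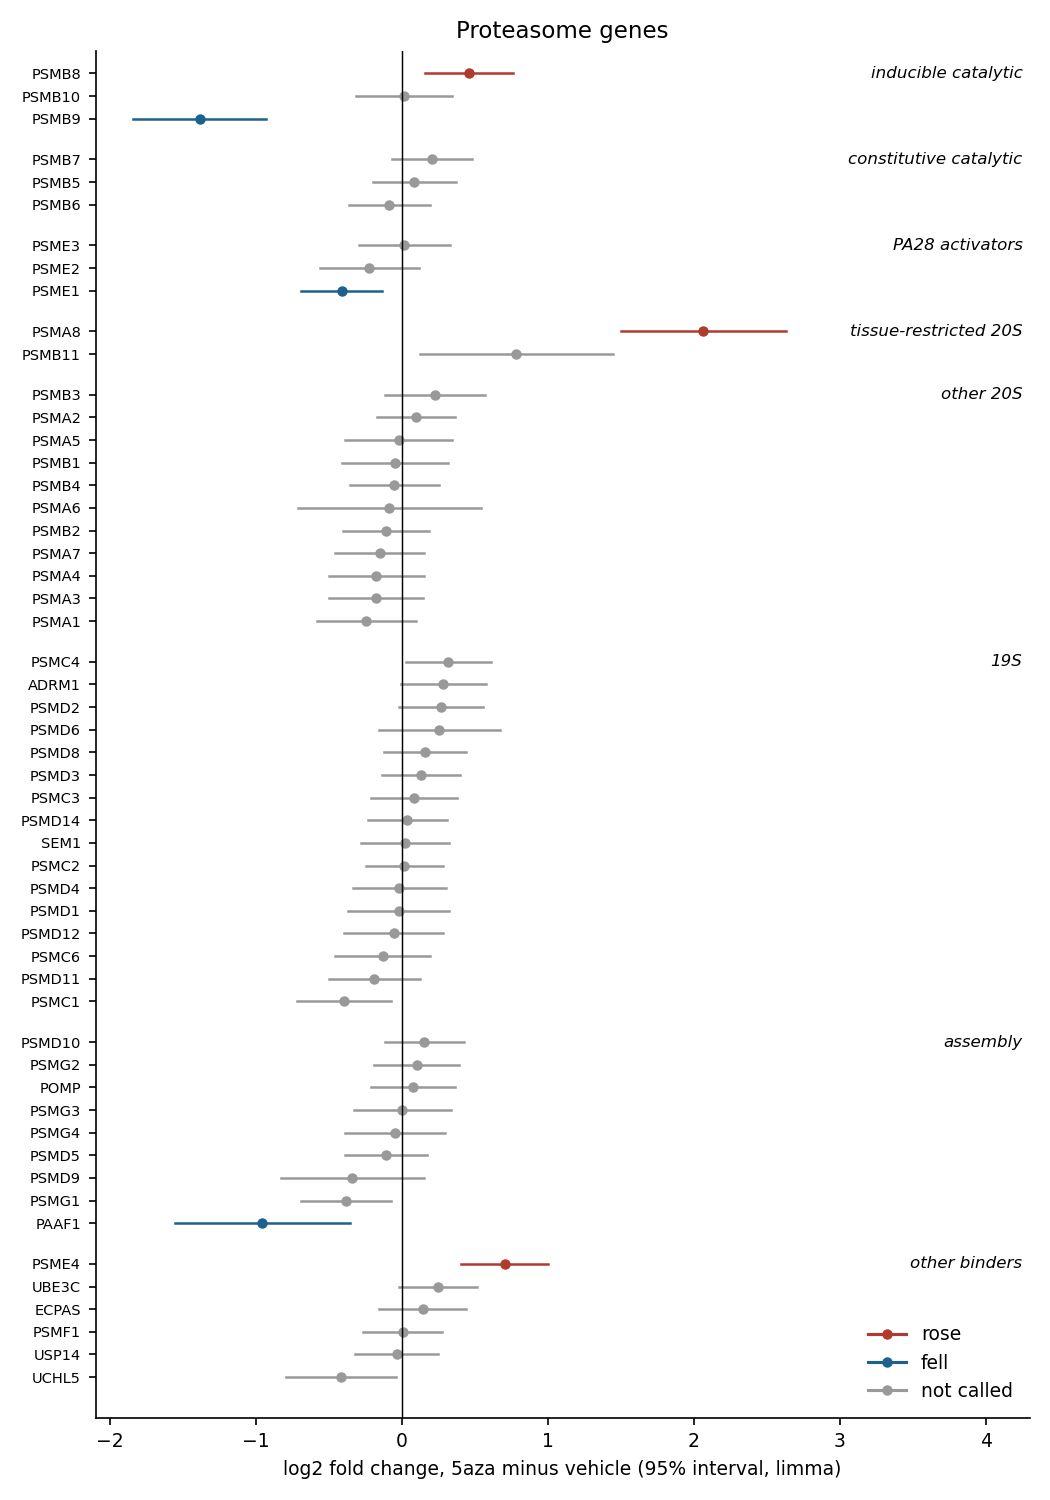
Log2 fold changes (5aza minus vehicle) of the 53 measured proteasome genes with limma's 95% intervals, grouped by role and sorted within each group. The 6 coloured genes are those called, 3 rises and 3 falls. PSMA8 at 2.06 and PSMB9 at -1.39 lie at the 2 ends, and the 11 other core subunits and 16 cap subunits lie between -0.40 and 0.32.

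Genes that act on transcription of these subunits were mostly not called. NFE2L1, the factor that raises proteasome genes when the proteasome is impaired, was at 11.47 and 11.29 on the 5aza arrays, against 11.07 and 10.84 on the vehicle arrays, and missed the threshold (log2 fold change 0.43, limma adjusted p = 0.0579). NFE2L1 was called without 5aza replicate 2 (0.0460) and under 5 other settings. Of 16 measured genes of the interferon-gamma pathway and its brakes, 1 rose and 2 fell, 18.75% called against 28.0% of all genes, with a median log2 fold change of 0.00. NLRC5, a transactivator of MHC class I genes, was at 5.07 and 4.94 on the 5aza arrays, against 5.81 and 5.90 on the vehicle arrays. Its 5aza values lay below the array medians, and it was removed with the dimmest 33.3% of genes. It was 1.80-fold lower in 5aza cells (limma adjusted p = 0.00288), and called with any 1 array left out. IRF2 was at 9.13 and 9.06 on the 5aza arrays, against 9.83 and 9.71 on the vehicle arrays. This interferon regulatory factor, which binds the same kind of element as IRF1, fell by 0.68 on the log2 scale (limma adjusted p = 0.00678, and 0.0765 without vehicle replicate 1). SOCS1, a feedback inhibitor of the receptor kinases, was at 7.96 and 8.10 on the 5aza arrays, against 7.40 and 7.34 on the vehicle arrays. It rose 1.59-fold (limma adjusted p = 0.00724, and 0.0668 without vehicle replicate 2). IRF1, the factor through which interferon-gamma raises these subunits, was at 8.58 and 8.51 on the 5aza arrays, against 8.52 and 8.67 on the vehicle arrays, with overlapping groups (limma adjusted p = 0.798; chosen after its value was seen).

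Of 12 measured genes of MHC class I and peptide loading, limma called 2 falls and 0 rises. With no adjustment, 3 had a p under 0.05 and all 3 were lower, while 4130 of all 17958 genes were lower and 2984 higher at that p. Besides TAP2, the fall was of TAPBP, which tethers class I molecules to the transporter, at 10.56 and 10.71 on the 5aza arrays, against 11.21 and 11.14 on the vehicle arrays (log2 fold change -0.54, limma adjusted p = 0.0169). TAPBP was not called without vehicle replicate 1 (0.145) or vehicle replicate 2 (0.0946). The called share of this list, 16.7%, was below the 28.0% of all genes.

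The genes whose 4 values followed an inducible subunit most closely, by Euclidean distance after each gene was centred on its own mean, differed for the 3 subunits. They were DUSP19 (distance 0.02) and LIPT2-AS1 (0.08) for PSMB9, TSPAN11 (0.02) and CRYGC (0.03) for PSMB8, and NHSL2 (0.01) and SNX8 (0.02) for PSMB10. DUSP19 was at 5.03 and 4.43 on the 5aza arrays, against 6.12 and 6.10 on the vehicle arrays, the pattern of PSMB9 with its wider spread in 5aza. Over only 4 arrays such likeness is a description.

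Genes used as markers of epithelial cells and of leukocytes were also read in this cell line. The 8 epithelial markers, of which 4 fell and 1 rose (62.5% called, against 28.0% of all genes), ran from 9.25 to 13.33 over the 4 arrays. EPCAM, the epithelial adhesion molecule, and the claudins CLDN3, CLDN4 and CLDN7 fell, with log2 fold changes between -0.92 and -0.46, and KRT18 rose by 0.44 (chosen after its value was seen). The keratins KRT19 and KRT8 were also higher on both 5aza arrays, without a call (log2 fold changes 0.44 and 0.21, limma adjusted p = 0.0554 and 0.217). CDH1 was lower on both, also without a call (-0.06, limma adjusted p = 0.732). The fall of CLDN7 and the rise of KRT18 were each lost without vehicle replicate 1 (limma adjusted p = 0.225 and 0.237) or vehicle replicate 2 (0.132 and 0.169), that of CLDN7 also with housekeeping centring (0.0630) and that of KRT18 also without 5aza replicate 2 (0.0691). Of 17 leukocyte markers, 7 rose and 1 fell (47.1% called, against the same 28.0%), and the mean level of the list was 5.43 and 5.50 on the 5aza arrays, against 4.96 and 5.11 on the vehicle arrays. The rises were led by CD3D, CD68 and CSF1R (log2 fold changes 1.79, 1.53 and 1.497). CSF1R on all 4 arrays, and CD3D on the vehicle arrays, lay below the array medians. The fall was of the class II gene HLA-DRA, also of the MHC (log2 fold change -1.47). PTPRC, the pan-leukocyte antigen CD45, was at 3.05 and 3.20 on the 5aza arrays, against 2.93 and 3.11 on the vehicle arrays, with overlapping groups (limma adjusted p = 0.604; chosen after its value was seen). The part of these shifts in the results above was not tested. In RNA from a whole culture, fewer cells of a kind and less RNA per cell cannot be told apart.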

How the data were processed

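The deposited log2 levels came from RMA in Affymetrix Expression Console, run by the authors, per the submitters' processing notes. Their version, build and probe set definition were not given in the sources used here. It has 33297 probe sets on 4 arrays, with no detection calls. A platform annotation table gave 1 symbol for 19181 of them. Where a gene had several, the brightest on average stood for it, which left 17958 genes. lmFit and eBayes of limma (version 3.58.1, under R 4.3.3) were run without covariates, with Benjamini-Hochberg adjustment over all genes. The median standard error of a log2 fold change was 0.13, and the number of arrays limits the precision. An exact permutation test was used for within-array differences. The fit was tested on data simulated with independent noise under its own variance model, which checks the code and not how well that model holds for these arrays.

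Members and lists were chosen with earlier results of these data known. Named by rule were the members, up to 4 called genes per list by fold change (with no call, the gene with the smallest p), the neighbours of PSMB8 and PSMB9, and the 2 closest patterns per inducible subunit, 36 genes in all. Alternatives covered probe set choice, scaling, a filter on dim genes, the variance model, the threshold, the replicate block and leaving out each array. Promoter windows came from RefSeq. Cross-hybridization between related genes was not assessed.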

Additional observations from a re-analysis of the deposited data

How the results depend on the processing

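PSMB9 was lower in 5aza cells and called under all 12 alternatives, with log2 fold changes between -1.68 and -1.10 and adjusted p up to 0.00634. PSMB5, PSMB6, PSMB7, PSMB10, PSME2 and PSME3 were called under none of the 12 (lowest adjusted p 0.0521, for PSME2). PSMB8 had 0.37 with quantile normalization repeated and was not called, and with 1 array left out it ran from 0.36 to 0.55. It was removed with the dimmest 33.3% of genes and has no value there. PSME1 had -0.32 with housekeeping centring and -0.36 with quantile normalization repeated, both uncalled, and ran from -0.46 to -0.36 with 1 array left out. At an adjusted p under 0.01 PSMB8 (0.46) and PSME1 (-0.41) were not called. Members that rose numbered 0 with quantile normalization repeated, without the dimmest genes and at the stricter threshold, and 0 to 1 with 1 array left out. Members that fell numbered 1 with centring, with repeated quantile normalization and at the stricter threshold, and 1 to 2 with 1 array left out. Over all genes, 1298 rose and 1255 fell at an adjusted p under 0.01. With 1 array left out, rises ran from 1267 to 2530 and falls from 1196 to 3401. Rises made up 44.4% of all calls as deposited and 57.0% with centring, which moved the median gene by 0.09. The cause of these differences was not tested. The labels do not say that equal replicate numbers mark a pair, and with 2 pairs the data do not settle it (r = 0.27 between deviations of same-numbered arrays across genes). The replicate block changed no member's call (2805 rises and 3834 falls over all genes, PSMB9 adjusted p = 0.000216). Its sign-flip version left the changes within pairs as they were (exact p = 0.5, the smallest it allows). Falls among the 53 proteasome genes numbered 6 with the block, and rises and falls 5 each with an intensity trend. Rises among them numbered 1 without the dimmest genes, and falls 1 at the stricter threshold. For 30 other named genes no direction of a call turned. Among 352 values, 35 lost a call and 9 gained one. No detection calls were used, so values at low levels, as for PSMB8 and PSMA8, are the least certain.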

Other observations

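Of 53 measured proteasome genes, 41 (77.4%) were lower on the array of 5aza replicate 2 than on that of replicate 1, against 51.1% of all genes. Between the vehicle arrays 36 (67.9%) were lower on replicate 2, against 47.3% of all genes. Of the 9 catalytic and PA28 genes, 6 (66.7%) were lower on 5aza replicate 2 and 4 (44.4%) on vehicle replicate 2. The genes share their arrays, so these counts are a description without a test.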
